A study of Mus musculus with 11 samples.

Results

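Small RNA from the brain tissue of 11 mice was sequenced, and the levels of miR-204-5p, miR-204-3p, miR-211-5p and miR-184-3p were examined in every library. These 4 mature miRNAs, of 1907 names in each count table, were chosen by name as miRNAs known from choroid plexus, pigment epithelium and related barrier cells. The choice was made with the sham and pMCAO counts of these libraries already in view, so the differences between the groups are given as a description, without a test of their own. All mice were male Balb/cOlaHsd mice with a labelled age of 3 months, and tissue was taken 3 days after surgery. In 6 mice the operation was a sham, and the labels give cortex as their tissue. In the other 5 mice the middle cerebral artery was closed permanently (pMCAO), a stroke model without reperfusion, and the tissue is labelled as the peri-ischemic cortex around the lesion. The ischemic core had been dissected away, and any difference in the piece of cortex taken cannot be told apart from pMCAO itself. The names of the deposited tables call both groups vehicle, while the labels name no agent and no genetic change for either.

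A miRNA is cut from the 2 arms of a short RNA hairpin, and the arm that is retained guides the silencing of mRNAs through its seed, bases 2 to 8. The choroid plexus is the epithelium that makes cerebrospinal fluid and separates it from blood, and the retinal pigment epithelium forms a similar barrier behind the photoreceptors. miR-204 and miR-211 lie in introns of related ion channel genes and are well known from pigment cells and their epithelia. miR-184 is a conserved miRNA known from cornea and lens, and it has also been studied in neural stem cells.

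All 4 names matched the RefSeq sequences of GRCm38.p6, the mouse assembly also called mm10. The mature sequences are shown 5′ to 3′ with the seed in capitals, because the seed places miR-204-5p and miR-211-5p in 1 family and sets miR-184-3p apart.
mmu-miR-204-5p: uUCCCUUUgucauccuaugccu
mmu-miR-211-5p: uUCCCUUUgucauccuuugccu
mmu-miR-204-3p: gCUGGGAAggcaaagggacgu
mmu-miR-184-3p: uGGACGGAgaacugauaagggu

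Over their 22 bases, miR-204-5p and miR-211-5p differed at 1 position, A17U, with positions counted from 1 at the 5′ end and the base of miR-204-5p given first. Likeness was searched among 1679 mature RefSeq names, 1623 of which are among the 1907 counted names, so some counted miRNAs were not searched. Within these, each was the nearest to the other, and the next nearest to miR-204-5p, miR-6975-3p, had 5 mismatches. The handling of multi-mapping reads is not given in the sources used here. Reads of miR-204-5p and miR-211-5p could be counted on each other for that reason, and the low values of miR-211-5p are uncertain. Among the names searched, miR-7670-3p was the only other with their seed, while no other shared the seed of miR-184-3p. The nearest sequence to miR-184-3p had 6 mismatches.

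The Mir204 hairpin lies at chr19:22750605-22750672 on the plus strand, in an intron of Trpm3 on the same strand in the GENCODE annotation of this assembly. The Mir211 hairpin lies at chr7:64205806-64205911 on the plus strand, in an intron of Trpm1, also on the same strand. Both host genes encode TRP channels of the melastatin group. The Mir184 hairpin lies at chr9:89802260-89802328 on the minus strand and overlaps no other annotated gene. Its nearest neighbour is the long non-coding RNA gene 1700017I07Rik, 542 bases away on the plus strand.

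Library totals ran from 1429037 to 2319810 counts in sham and from 744877 to 1411620 in pMCAO, so every sham library was deeper. The neuron list was at 324448 to 412319 CPM in sham and 277899 to 329645 CPM in pMCAO, with all 5 of its miRNAs past the filter, so that the labelled brain tissue was marked in every library. CPM are counts scaled to a common library size, after TMM scaling, which corrects for library composition. Sham replicate 1 stood apart for miR-451a, a red blood cell miRNA, which reached 5115 CPM there and at most 252 CPM in the remaining sham mice. Correlations over the libraries are also given without it, as a value or a range. Summed over its 3 members, the myeloid list was at 275 to 696 CPM in sham and 733 to 3699 CPM in pMCAO, and all 3 passed edgeR's adjusted threshold as higher. Of the oligodendrocyte list, at 3575 to 4485 CPM in sham and 2111 to 3937 CPM in pMCAO, 1 of 2 members passed as lower, miR-338-3p. Of the neuron list 0 of 5 passed, and 4 had a log2 fold change, pMCAO over sham, below 0. Over all 479 miRNAs tested, 4.38% passed as higher and 2.71% as lower, and 49.7% had a log2 fold change below 0. Of the mural and fibroblast list, at 6850 to 11513 CPM in sham and 6364 to 8754 CPM in pMCAO, 1 of 5 passed as higher, miR-214-3p. This list was split. Its sum is mostly miR-145a-5p (mean 7124 of 8359 CPM in sham), at a log2 fold change of -0.22, with miR-143-3p at -0.043. The other 3, miR-199a-5p, miR-199a-3p and miR-214-3p, were at 0.79, 1.06 and 1.68. The part of these cell types in the members' values was not tested. In tissue of mixed cells, fewer cells of a type cannot be told apart from less of an RNA in each cell.

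The 4 miRNAs spanned a wide range of levels. In sham tissue miR-204-5p was at 1697 ± 233 CPM (SD, n = 6), rank 77 of the 1907 names by mean level. The other arm of the same hairpin, miR-204-3p, was at 22.2 ± 4.64 CPM (SD, n = 6), rank 378. The level of miR-184-3p was 15.8 ± 4.79 CPM (SD, n = 6), rank 407, and that of miR-211-5p was 2.52 ± 2.07 CPM (SD, n = 6), rank 582. The ranges of miR-204-3p and miR-184-3p overlapped in sham tissue, and their order was not the same in every sham library. miR-184-3p had more counts than miR-204-3p in sham replicates 3 and 6 and fewer in the rest. Levels of different miRNAs also depend on how well each is captured in a library, which was not measured.

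**Figure D1:**
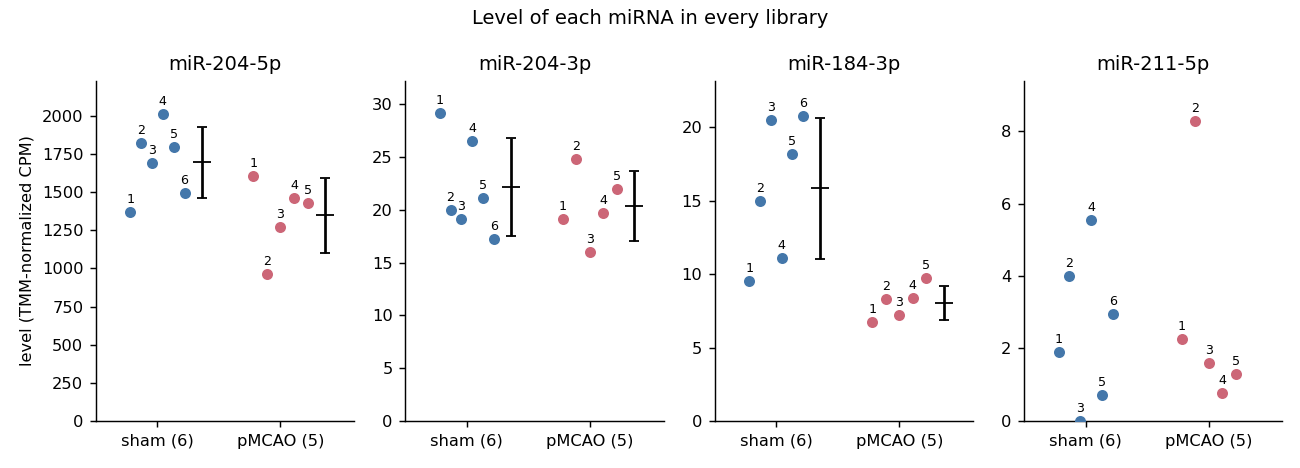
Level in TMM-normalized CPM (linear vertical axes from 0) of each of the 4 miRNAs in the 6 sham and 5 pMCAO libraries. Points are libraries, numbers are replicate numbers, and bars beside the points are the mean ± SD, left out for miR-211-5p because its counts are so low. The 5 pMCAO libraries of miR-184-3p sit between 6.75 and 9.71 CPM, below 5 of the 6 sham libraries.

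miR-184-3p was the member with the largest difference between the groups. Its level was 15.8 ± 4.79 CPM (SD over 6 sham mice) against 8.06 ± 1.15 CPM (SD over 5 pMCAO mice), a fitted fold of 0.518. In the sham libraries it ranged from 9.51 CPM over a median of 16.6 CPM to 20.7 CPM. In the pMCAO libraries it was at 6.75, 8.28, 7.20, 8.35 and 9.71 CPM for replicates 1 to 5. The groups overlapped by 1 sham library, since sham replicate 1, the lowest at 9.51 CPM, lay under pMCAO replicate 5 and above the other pMCAO libraries. The counts behind these levels were small, with 15, 30, 30, 18, 25 and 35 reads in sham replicates 1 to 6 and 6, 7, 9, 11 and 15 reads in pMCAO replicates 1 to 5.

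The log2 fold change of miR-184-3p, pMCAO over sham, was -0.95 with a standard error of 0.26. Ordered from the lowest, it was rank 2 of the 479 miRNAs that passed edgeR's filter on low counts. It lay beside miR-486a-3p at -0.996 and miR-34a-5p at -0.92. The spread of miR-184-3p in sham exceeded counting error, with a Pearson chi-square of 2.31 per degree of freedom, a measure near 1 where libraries differ by counting alone. In pMCAO the same measure was 0.203, so that the 5 pMCAO libraries agreed within counting error.

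By edgeR's quasi-likelihood fit, with adjusted p below 0.05 as the threshold, 1 of the 3 members tested passed, miR-184-3p, in a comparison in which 7.1% of all 479 miRNAs passed, 2.71% as lower and 4.38% as higher. Since this contrast was in view when the members were chosen, nothing is read from that count. The call was lost under upper-quartile scaling, total counts alone, DESeq2, no filter and the replicate block, with log2 fold changes between -0.99 and -0.78, and miR-184-3p was not tested where at least 10 counts were required in every library. With 1 library left out it held only without sham replicate 1 or without sham replicate 4, while the log2 fold change stayed between -1.05 and -0.85.

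miR-204-5p, the guide arm of its hairpin, differed by a smaller ratio, at a far higher level. It was at 1697 ± 233 CPM (SD over 6 sham mice) against 1348 ± 246 CPM (SD over 5 pMCAO mice), a fitted fold of 0.794. The sham libraries ranged from 1368 CPM over a median of 1742 CPM to 2012 CPM. The pMCAO libraries were at 1610, 964, 1270, 1464 and 1431 CPM for replicates 1 to 5. The lowest sham library was again sham replicate 1, and the groups overlapped, with only pMCAO replicates 2 and 3 below every sham library.

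The log2 fold change of miR-204-5p was -0.33 with a standard error of 0.14, rank 47 from the lowest of 479, and it was not past the threshold. It ran from -0.41 without pMCAO replicate 1 to -0.20 without pMCAO replicate 2, and with total counts alone it was -0.16, under a scaling that moved the median of all miRNAs tested from 0.0015 to 0.18. With between 815 and 3650 counts per library, its counting error was small. The Pearson chi-square per degree of freedom was 52.2 in sham and 40.4 in pMCAO, so the spread between libraries was far larger than counting error. Summing the counts of miR-204-5p and miR-211-5p left the log2 fold change at -0.33.

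miR-204-3p, the less abundant arm, differed little between the groups. It was at 22.2 ± 4.64 CPM (SD over 6 sham mice) against 20.3 ± 3.30 CPM (SD over 5 pMCAO mice). Sham libraries ranged from 17.2 CPM over a median of 20.5 CPM to 29.2 CPM, the last in sham replicate 1. The pMCAO libraries were at 19.1, 24.8, 16.0, 19.7 and 22 CPM for replicates 1 to 5. The range of the pMCAO group thus lay mostly within that of the sham group. The log2 fold change was -0.13 with a standard error of 0.20, smaller than its error, and it turned to 0.049 with total counts alone. Across the 3 members tested, all 3 log2 fold changes were below 0, as were 49.7% of those of all miRNAs tested, and none of the 3 was without overlap between the groups, where 7.52% of all miRNAs tested were and 3.34% lay lower in every pMCAO library.

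**Figure D2:**
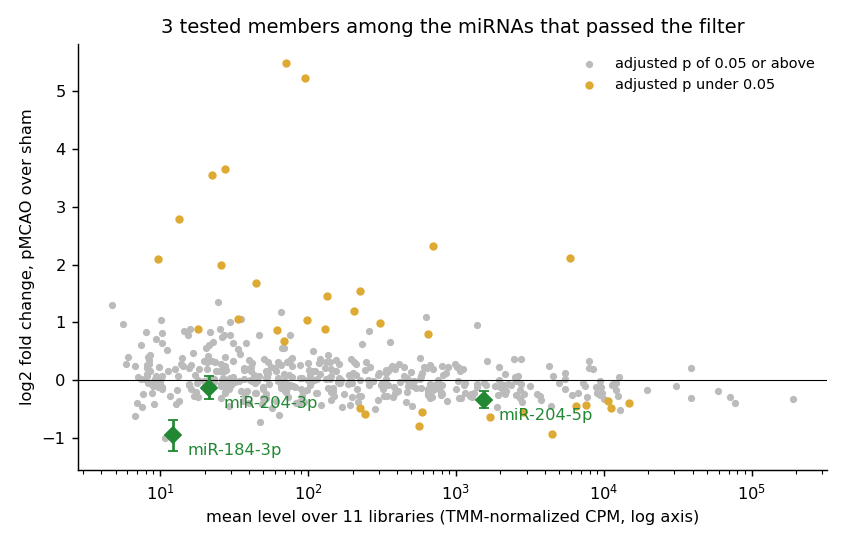
Log2 fold change, pMCAO over sham, against the mean level over the 11 libraries (TMM-normalized CPM, log axis) for the 479 miRNAs that passed the filter. Diamonds with standard errors are the 3 members tested, yellow points are other miRNAs with an adjusted p under 0.05, and grey points are the rest. miR-184-3p sits at -0.95 near the low end of the levels, and miR-204-5p at -0.33 lies at a far higher level.

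miR-211-5p did not pass the filter, so that no fold change was fitted. It had 3, 8, 0, 9, 1 and 5 counts in sham replicates 1 to 6 and 2, 7, 2, 1 and 2 counts in pMCAO replicates 1 to 5, or 40 counts in all. At least 1 count was seen in 10 of the 11 libraries. Its level was 2.52 ± 2.07 CPM (SD over 6 sham mice) against 2.84 ± 3.09 CPM (SD over 5 pMCAO mice), with an SD near or above the mean in each group. A difference between the groups was not detectable at this depth, where 3 counts correspond to 1.5 to 3.55 CPM.

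The other arms of these hairpins were at or near 0. miR-211-3p had 1 count, in pMCAO replicate 4, and none in the other 10 libraries. miR-184-5p had 0 counts in all 11 libraries, which allows up to 3 counts in each, or 1.5 to 3.55 CPM. The hairpins are shown with both arms in capitals, because the capitals mark which arm each count belongs to.
Mir204: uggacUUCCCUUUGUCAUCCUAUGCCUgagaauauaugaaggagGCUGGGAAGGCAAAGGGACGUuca
Mir184: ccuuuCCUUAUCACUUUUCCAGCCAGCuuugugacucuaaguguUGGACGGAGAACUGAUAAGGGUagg

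In Mir204 the first capital run is miR-204-5p, the abundant arm, whereas in Mir184 the second capital run is miR-184-3p and the first had no count. For miR-204, where both arms were counted, the 3p arm came to between 1.10% and 2.13% of the 5p counts in sham libraries, with a median of 1.16%. In pMCAO libraries it came to between 1.19% and 2.58%, with a median of 1.35%. The highest value in each group belonged to the library with the lowest miR-204-5p, namely sham replicate 1 and pMCAO replicate 2. As a share of both arms, the value in sham replicate 1 was 2.09% (exact 95% binomial interval 1.53 to 2.77%), and in pMCAO replicate 2 it was 2.51% (1.56 to 3.81%). These intervals cover counting error only, and they overlap those of several other libraries.

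The counts of miR-211-5p were also set against those of miR-204-5p. Their ratio was 0 to 0.276% in sham libraries, with a median of 0.168%, and 0.0518 to 0.859% in pMCAO libraries, with a median of 0.126%. As a share of both, the highest value was 0.852% in pMCAO replicate 2 (exact 95% binomial interval 0.343 to 1.75%), which rests on 7 counts. In sham replicate 3 no miR-211-5p was counted beside 2471 counts of miR-204-5p, which gives an upper bound of 0.149% by the same method. The interval of sham replicate 3 overlaps those of the other libraries except pMCAO replicate 2. The source of the miR-211-5p reads was not tested.

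miR-184-3p was also set against miR-204-3p, a miRNA of similar level. In sham libraries its counts were between 32.6% and 121% of those of miR-204-3p, with a median of 80.6%, and in sham replicates 3 and 6 they exceeded them. In pMCAO libraries the ratio was between 33.3% and 45.0%, with a median of 42.3%. The pMCAO range lay inside the sham range at its lower end, beside sham replicates 1 and 4. This ratio needs no scaling of the libraries, since both counts come from the same one.

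**Figure D3:**
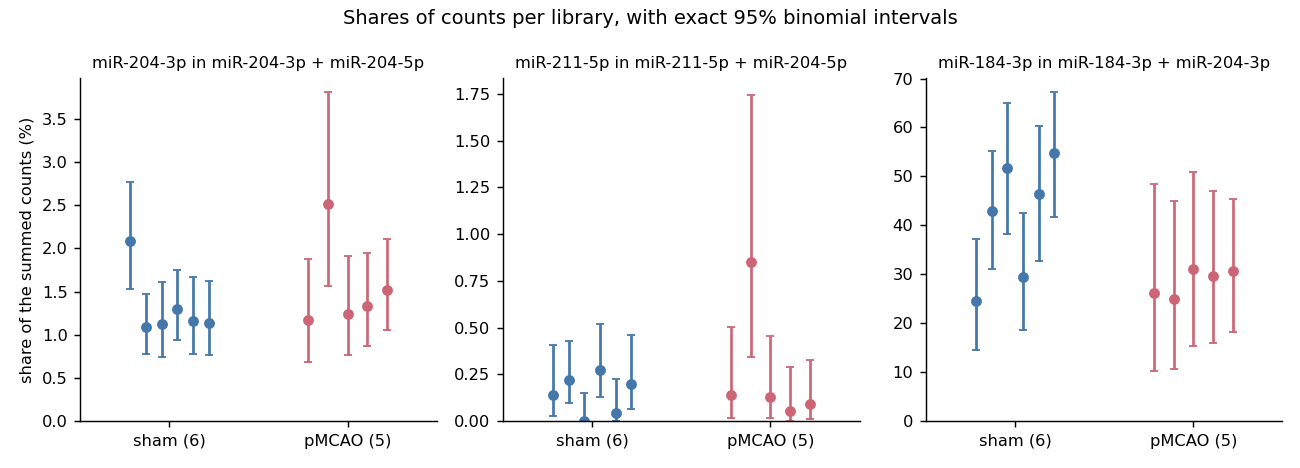
Share of the summed counts of 2 miRNAs (vertical axes in percent, from 0) taken by the first of them in each sham and pMCAO library, with exact 95% binomial intervals as bars. From left to right the panels give miR-204-3p with miR-204-5p, miR-211-5p with miR-204-5p, and miR-184-3p with miR-204-3p. The intervals of neighbouring libraries mostly overlap, and in the right panel 4 sham libraries lie above all pMCAO libraries.

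The members were then compared over libraries within the groups. After each group's mean was removed from log2(CPM + 1), Pearson's r over the 11 libraries was -0.25 between the arms of miR-204 (Spearman's rho -0.055), and 0.014 without sham replicate 1. It was -0.010 between miR-204-5p and miR-184-3p (rho -0.20), and -0.45 without sham replicate 1. Between miR-204-3p and miR-184-3p it was -0.60 (rho -0.49), and -0.36 without sham replicate 1. Leaving out single libraries thus moved each value, and turned the sign of both values for miR-204-5p. The libraries share depth and composition effects, and the counts of miR-204-3p and miR-184-3p are low, so these values describe the 11 libraries only. With log2 library totals treated in the same way, r was 0.38 for miR-204-5p, -0.24 for miR-204-3p and 0.048 for miR-184-3p, and 0.40, -0.26 and 0.021 without sham replicate 1. Without pMCAO replicate 2 the first was -0.096 and the second 0.020, and without pMCAO replicate 1 the first was 0.64. The third turned to -0.094 without pMCAO replicate 5.

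By the same measure, the miRNA most like miR-204-5p among 478 was miR-379-5p, of a large imprinted miRNA cluster, with r = 0.88 (rho 0.84). Next came let-7e-5p with r = 0.79, miR-124-3p, the neuronal miRNA that was the most abundant in these tables, with r = 0.79, then miR-28a-5p with r = 0.77 and miR-185-5p with r = 0.76. The miRNAs most like miR-204-3p were miR-1983 (r = 0.89), miR-505-3p (0.85), miR-15b-3p (0.76), miR-669c-5p (0.70) and miR-541-3p (0.70). Those most like miR-184-3p were miR-466n-5p (r = 0.78), miR-322-3p (0.76), miR-466q (0.75), miR-222-5p (0.66) and miR-6540-5p (0.65). The lists share no name. Without sham replicate 1, the r of these names ran from 0.74 to 0.91 for miR-204-5p, from 0.65 to 0.88 for miR-204-3p and from 0.34 to 0.68 for miR-184-3p. They depended on single libraries: without sham replicate 1, only 1 of the 5 names for miR-184-3p was kept, and without pMCAO replicate 2, only 1 of the 5 for miR-204-5p.

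At the other end of the same order, the miRNA least like miR-184-3p among the 478 was miR-451a, the red blood cell miRNA. Over 11 libraries r was -0.84 and rho was -0.85, after removal of the group means. The relation was noticed in the data, as the lowest of the 478 values. For the other members the lowest r among 478 was -0.86 (miR-204-5p) and -0.82 (miR-204-3p). An extreme of this size was thus not particular to miR-184-3p. Sham replicate 1 held the most miR-451a and the least miR-184-3p of the sham libraries, and without it r was -0.71 (rho -0.65, n = 10). Within the sham libraries r was -0.89 (n = 6). The 5 pMCAO libraries gave -0.51, over only those libraries. Levels of miR-451a were 42.7 to 5115 CPM in sham and 620 to 4465 CPM in pMCAO. The whole erythrocyte list was at 49.2 to 5375 CPM in sham and 639 to 4734 CPM in pMCAO. Of its 4 miRNAs 2 passed the filter, and none was at 0 throughout. Means in sham and pMCAO were 963 and 1875 CPM for miR-451a, 42.0 and 94.6 CPM for miR-144-3p. They were 8.40 and 16.7 CPM for miR-144-5p, and 1.32 and 1.30 CPM for miR-486a-5p, on 20 counts in all. The groups overlapped for each. miR-486a-3p, the other arm and not in the list, went the other way, from 13.8 CPM in sham to 7.19 CPM in pMCAO. It did not pass edgeR's threshold. The part of red blood cells in the difference of miR-184-3p between the groups was not tested.

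**Figure D4:**
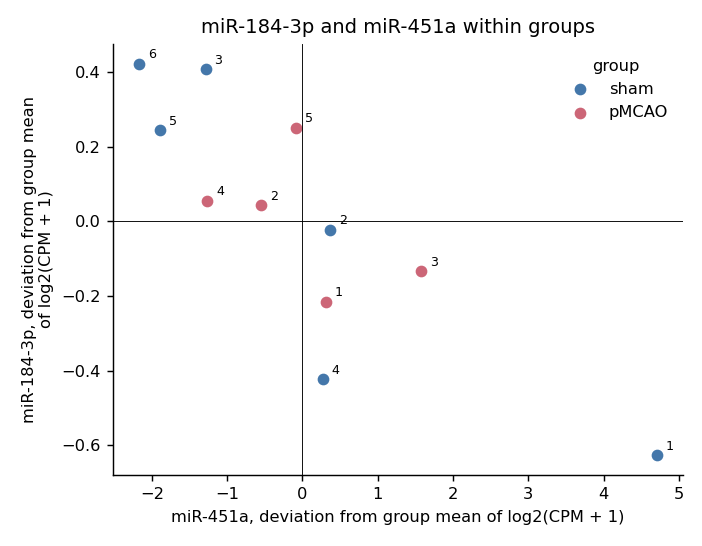
Deviation of miR-184-3p (vertical) against that of miR-451a (horizontal) from the mean of the library's own group, both on log2(CPM + 1), for 6 sham and 5 pMCAO libraries labelled with replicate numbers. Points run from upper left to lower right (r = -0.84, n = 11), with sham replicate 1 at the far lower right.

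Companion miRNAs of barrier and related epithelia were listed from general knowledge, to see whether other miRNAs of such cells lay on the same side. The lists were drawn up with earlier results of these data known, so their values are a description and no outside check. The first list holds miRNAs from introns of Htr2c, the serotonin receptor gene that is strongly expressed in choroid plexus epithelium. The annotation places Mir764, Mir1912, Mir1298 and Mir448 in introns of Htr2c, whereas the position of Mir1264 was not checked. Of the 12 names listed, 10 were in the tables and 7 passed the filter. All 7 had a log2 fold change above 0, from 0.55 to 1.30 with a median of 0.78. Over all 479 miRNAs the median was 0.0015, and 49.7% lay below 0. The highest value, of miR-1264-5p, rests on 2 to 10 counts in sham libraries and 0 to 11 in pMCAO libraries. Several of the 7 are the 2 arms of 1 hairpin, so they are not independent of each other. None of the 7 passed edgeR's adjusted threshold or DESeq2's, and 3 had an unadjusted p under 0.05 from edgeR, as did 24.4% of all 479. Without the arms of miR-1264, the other 5 ran from 0.55 to 0.83 with a median of 0.66.

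miR-448-5p of this list was at 16.2 ± 5.61 CPM (SD over 6 sham mice) against 28.6 ± 11.3 CPM (SD over 5 pMCAO mice), a log2 fold change of 0.83 (adjusted p = 0.111, edgeR). miR-1298-5p was at 20.1 ± 7.21 CPM (SD over 6 sham mice) against 35.1 ± 13.2 CPM (SD over 5 pMCAO mice), which gave 0.78 on the log2 scale (adjusted p = 0.149, edgeR). For miR-1264-3p the levels were 11.3 ± 4.16 CPM (SD over 6 sham mice) against 21.6 ± 10.5 CPM (SD over 5 pMCAO mice), a log2 fold change of 0.88 (adjusted p = 0.140, edgeR). The most abundant, miR-764-3p, was at 56.6 ± 29.0 CPM (SD over 6 sham mice) against 83.1 ± 34.0 CPM (SD over 5 pMCAO mice). The sum over the list was 74.0 to 212 CPM among sham mice and 91.2 to 299 CPM among pMCAO mice, so the groups overlapped. The Htr2c miRNAs thus had log2 fold changes above 0 and the 3 members tested had values below 0, and neither list was tested as a group. Which cells of this tissue the reads of either list came from was not tested.

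The second list holds miR-34b, miR-34c and the miR-449 family, known from cells with many motile cilia such as ependyma, choroid plexus and airway. Of its 9 names, all were in the tables, 2 were at 0 in every library, namely miR-449a-3p and miR-449b, and 5 passed the filter. None of the 5 passed the threshold in edgeR or DESeq2, and 0 had an unadjusted p under 0.05 from edgeR, beside 24.4% of all miRNAs tested. The lowest log2 fold change was -0.27 for miR-34c-3p and the highest was 0.86 for miR-449a-5p (adjusted p = 0.239, edgeR). The list was split, with the 4 arms of miR-34b and miR-34c below 0 and miR-449a-5p alone above it. miR-449c-5p, which did not pass the filter, was at 1.38 CPM in sham and 3.74 CPM in pMCAO, on 35 counts in all. The abundant miR-34b-5p was at 338 ± 98.3 CPM (SD over 6 sham mice) against 305 ± 86.1 CPM (SD over 5 pMCAO mice). miR-34c-5p was at 274 CPM in sham and 273 CPM in pMCAO, a difference far within the spread.

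The third list holds miRNAs of epithelia in general, the miR-200 family with miR-203 and miR-205. Of 13 names, 5 passed the filter and none passed the threshold in edgeR or DESeq2, while 1, miR-203-3p, had an unadjusted p under 0.05 from edgeR, a share near the 24.4% of all miRNAs tested. That miRNA of stratified epithelia was at 193 ± 24.3 CPM (SD over 6 sham mice) against 234 ± 31.8 CPM (SD over 5 pMCAO mice), a log2 fold change of 0.28 (adjusted p = 0.186, edgeR). miR-205-5p was at 44.4 ± 8.46 CPM (SD over 6 sham mice) against 34.2 ± 7.16 CPM (SD over 5 pMCAO mice), a log2 fold change of -0.38 (adjusted p = 0.248, edgeR). The last list, miR-182, miR-183 and miR-96 of retina and sensory epithelium, had 1 of 6 names past the filter, miR-183-5p at 9.18 CPM in sham and 8.77 CPM in pMCAO, and neither edgeR nor DESeq2 called it.

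**Figure D5:**
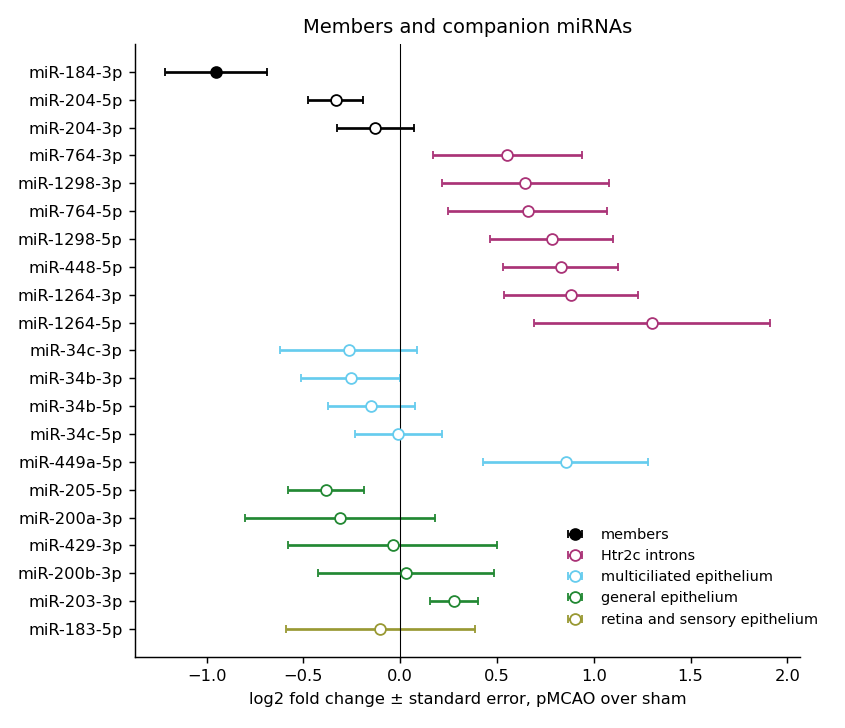
Log2 fold change, pMCAO over sham, with its standard error (horizontal axis) for the members tested and the companion miRNAs that passed the filter, coloured by list. A filled point marks an adjusted p under 0.05 from edgeR, which only miR-184-3p has. The 7 Htr2c miRNAs lie to the right of 0, between 0.55 and 1.30, and the 3 members to the left.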

How the data were processed

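The authors enriched small RNA from total RNA, and sequenced it on an Ion Torrent S5. Torrent Suite trimming and FastQC were followed by a length selection (20 to 30 bp), Bowtie alignment to mm10 and HTSeq counting against miRBase version 21. Raw counts were deposited per mature miRNA, without normalization. Settings and the handling of multi-mapping reads are not given in the sources used here. Brains were perfused, and the methods name no removal of choroid plexus or meninges. The labels give each library as its own sample, and p-values measure the spread between these samples.

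edgeR 4.0.16 was run in R 4.3.3. filterByExpr (minimum count 10, minimum total 15) kept 479 miRNAs, which were TMM-normalized and compared between pMCAO and sham by glmQLFit and glmQLFTest at a Benjamini-Hochberg adjusted threshold of 0.05. DESeq2 1.42.0, the study's tool, was an alternative, as were other scalings and filters, a replicate block and leaving out each library. Standard errors are the log2 fold change over the square root of F. Correlations used log2(CPM + 1) with group means removed. The scripts were tested on simulated data.

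The members and lists were chosen with earlier results of these data known. Named are the members, the other arms of their hairpins, the companions past the filter and the 5 miRNAs most like each member tested. Among those companions, the ones not described singly are given by counts and ranges. Of the companions that did not pass the filter, miR-449a-3p, miR-449b and miR-449c-5p are named, the last after its values were seen. miR-451a and the rest of the erythrocyte list are named as blood markers, and miR-486a-3p and miR-34a-5p were named after their values were seen.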

Additional observations from a re-analysis of the deposited data

Results flagged for a closer look

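A library far from the others of its group was looked for in 52 sets of values (the members, their ratios and the companion miRNAs, in each group). In 4 sets such a library was found, where 2.6 would be expected if the sets were independent and normally distributed. They are not independent, since ratios share the counts of miR-204-5p, and some rest on low counts, so 2.6 is only a rough guide. The ratio of miR-204-3p to miR-204-5p counts was 2.13% in sham replicate 1, with the remaining sham libraries at 1.32% and below. It was 2.58% in pMCAO replicate 2, against 1.54% or less in the other pMCAO libraries. The ratio of miR-211-5p to miR-204-5p counts was 0.859% in pMCAO replicate 2, against 0.140% or less in the others, and rests on 7 counts. The log2(CPM + 1) of miR-1264-5p was 0 in pMCAO replicate 3, against 3.02 or more in the other pMCAO libraries, and without that library its log2 fold change was 1.64 and past the threshold (adjusted p = 0.0422, edgeR). Over its 5 fits with a library left out in which it was tested, the adjusted p ran from 0.0422 to 0.406.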

How the results depend on the processing

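The count of called miRNAs was 34 (21 higher, 13 lower), 18 with at least 10 counts in every library and 19 with the replicate block, which left out sham replicate 6. Upper-quartile scaling gave 23 higher and 4 lower, and total counts alone 43 and 1. With a library left out the count ran from 16, without sham replicate 3, to 36. Of the members, 0 were called with upper-quartile scaling, total counts, DESeq2, no filter, the stricter filter or the block, against 1, and 0 to 1 with a library left out. The values of miR-184-3p were -0.93, -0.78, -0.97, -0.99 and -0.85 with upper-quartile scaling, total counts, DESeq2, no filter and the block, and -1.05 to -0.85 with a library left out. Those of miR-204-5p were -0.41 to -0.20 and of miR-204-3p -0.19 to -0.021 with a library left out, and miR-204-3p turned to 0.049 with total counts. The cause of these changes was not tested. Calls in the Htr2c list rose from 0 to 1 with the block (miR-1298-5p) and ran from 0 to 1 with a library left out, and in the general epithelium list to 1 with total counts (miR-203-3p).

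Directions near 0 turned in some fits. With total counts alone the log2 fold changes were 0.065 for miR-183-5p, 0.027 for miR-34b-5p, 0.17 for miR-34c-5p and 0.12 for miR-429-3p, none above that scaling's median of 0.18. miR-34c-5p was also at 0.014 with upper-quartile scaling, 0.030 with the stricter filter and 0.0085 with the block, and miR-200b-3p at -0.023 with the block. With a library left out they ran from -0.61 to 0.13 for miR-183-5p, -0.70 to 0.16 for miR-200a-3p, -0.23 to 0.37 for miR-200b-3p, -0.41 to 0.041 for miR-34c-3p, -0.15 to 0.13 for miR-34c-5p and -0.68 to 0.48 for miR-429-3p. Of the 5 most alike miRNAs, Spearman's rho kept 3 for miR-204-5p, 2 for miR-204-3p and 3 for miR-184-3p, and leaving out a library kept 1 to 5, 2 to 5 and 1 to 4. In an alternative chosen after seeing the data, leaving out a library moved r from -0.46 to 0.079 between the arms of miR-204, from -0.45 to 0.19 between miR-204-5p and miR-184-3p and from -0.75 to -0.36 between miR-204-3p and miR-184-3p. The median ratios of counts moved by less than 1 SD in every fit without a library. As a ratio of log2 levels, the medians in sham and pMCAO were 40.9% and 41.6% for miR-204-3p to miR-204-5p, 16.8% and 13.4% for miR-211-5p, and 38.2% and 30.7% for miR-184-3p.

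Between libraries of equal replicate number, deviations correlated with r from -0.077 to 0.23 over 5 numbers, 0 of which correlated best with their own. The main comparison therefore did not pair them. Such values cannot exclude that mice of equal number were handled together. The reads carry no molecular identifiers, and 6 to 35 counts per library limit miR-184-3p.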

Other observations

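With group means removed, each tested member was set beside the summed level of 9 marker lists over the 11 libraries, 27 relations in all, given as descriptions. The highest for miR-204-5p was with the neuron list (r = 0.71, rho 0.64), and without sham replicate 1 it was 0.73 (n = 10). With the myeloid list it was -0.66 (rho -0.51), and -0.59 without sham replicate 1. miR-204-5p and the multiciliated list gave r = -0.36 with all libraries and -0.82 without sham replicate 1. For miR-204-3p and miR-184-3p that list gave -0.57 and 0.53, and -0.37 and 0.26 without sham replicate 1. With the Htr2c list r was -0.16 for miR-204-5p, 0.28 for miR-204-3p and 0.17 for miR-184-3p, and without sham replicate 1 it was -0.055, 0.18 and 0.45. With the mural and fibroblast list, a sum that is mostly miR-145a-5p, it was -0.30, 0.0020 and 0.088, in the same order. Without sham replicate 1 it was -0.35, 0.020 and 0.095. For miR-184-3p the relation furthest from 0 was with the erythrocyte list (r = -0.83), and it was -0.70 without sham replicate 1. The sum of that list is mostly miR-451a, so this repeats the relation with miR-451a given above and is no further one.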
